A study of Mus musculus with 4 samples.

Results

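Terminal end buds, the swollen tips that lead the growth of mammary ducts at puberty, were examined for 54 genes of glutathione metabolism and antioxidant defence, of 19938 genes named on the array. The genes were selected by symbol: the glutathione peroxidases, the glutathione S-transferases (soluble and microsomal), the peroxiredoxins, superoxide dismutases, thioredoxins and their reductases, together with named genes of glutathione synthesis, catalase, quinone reductases, heme oxygenases and the NRF2 regulators. Only probe sets annotated to a single gene were used, and a gene with several was represented by the probe set of highest mean signal across the 4 arrays. That mean is the only measured value the selection rule used, though the genes were chosen with earlier results of these data known. Of the 54 genes, 44 were bright enough to be tested and 10 were not.

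The study compared 2 control arrays with 2 arrays labelled Ovol2 KO, all of terminal end buds from female C57/BL6 mice. Ovol2 is a zinc finger repressor known for holding epithelial cells back from a mesenchymal state. Ovol2 KO mice carried 1 floxed and 1 null Ovol2 allele (Ovol2flox/-) with K14-Cre, a recombinase expressed from the keratin 14 promoter of basal epithelial cells and skin. The null allele was present in all cells of these mice. Control mice carried 1 floxed and 1 wild-type allele (Ovol2flox/+), and the protocol allows K14-Cre in some of them whereas the sample characteristics name none. Each array held pooled RNA, from 2 mice per control array and 3 mice per Ovol2 KO array, so pool size and genotype cannot be told apart. The labels give an age of 4.5 weeks and the series text 24 to 25 days.

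Glutathione is a small cysteine-containing peptide that is made by glutamate-cysteine ligase and glutathione synthetase and kept reduced by glutathione reductase. Peroxidases and peroxiredoxins use it or thioredoxin to remove peroxides, and glutathione S-transferases attach it to reactive or foreign molecules for export. Many of these genes are known targets of the transcription factor NRF2, encoded by Nfe2l2, which the KEAP1 protein holds in check until cells meet oxidants.

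Values are log2(signal + 16) after quantile normalization, differences are Ovol2 KO minus control on that scale, values after ± are SEs of the difference, and n = 2 arrays per group throughout. The threshold is an adjusted p of 0.05 in limma over 11963 tested genes. The median linear signal lay between 252 and 272 on the 4 arrays. Ovol2 itself differed by -0.39 ± 0.16, in the direction of the labels, and did not pass (adjusted p = 0.17). Ovol2 reached the signal filter only through its control signal, with group means of 8.18 for control and 7.79 for Ovol2 KO. Both Ovol2 KO arrays lay under the filter level, which limits what can be said of the size of this difference. Epithelial markers were present in every array, with Krt8 between 13.57 and 13.65 and Epcam between 12.23 and 12.37. Markers of fibroblasts were higher in the Ovol2 KO arrays, for 13 of 13 tested genes, against 6.29% of all tested genes. Of these, Lama2 passed the filter only through its Ovol2 KO signal. Marker values are given beside the results they accompany.

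Of the 44 tested antioxidant genes, 5 rose, 2 fell and 37 did not pass. The genes that rose were Gpx3, Gclc, Gsr, Gstm1 and Gstm3, and those that fell were Gpx2 and Gsta4. Over all 11963 tested genes, 6.29% rose and 4.45% fell, against 11.4% and 4.55% of the antioxidant genes. Either way 15.9% of the antioxidant genes passed, against 10.7% of all tested genes, and with counts of 5 and 2 these shares are given as a description. The median difference was 0.05 for the tested antioxidant genes and -0.02 for all tested genes. Both Ovol2 KO arrays lay above both control arrays for 21 of the 44 genes (47.7%, against 26.4% of all tested genes) and below both for 10 (22.7%, against 29.9%). The differences were small for most members. For 32 of the 44 genes (72.7%) the difference was under 0.2 in size, as it was for 74.3% of all tested genes. At the other end 2 of the 44 genes, Gpx3 and Gpx2, differed by at least 1, a share of 4.55% against 0.811% of all tested genes. Without control replicate 1 only Gpx3 and Gclc among the 5 still passed as higher, while Gpx2 and Gsta4 still passed as lower. With median centring of the arrays 3 genes rose and 2 fell, and without a trend in the variance prior Gpx3 and Gpx2 alone passed, when 1.57% of all tested genes did. Without control replicate 1 the calls over all genes fell from 1285 to 476, and without Ovol2 KO replicate 1 they numbered 2347.

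**Figure D1:**
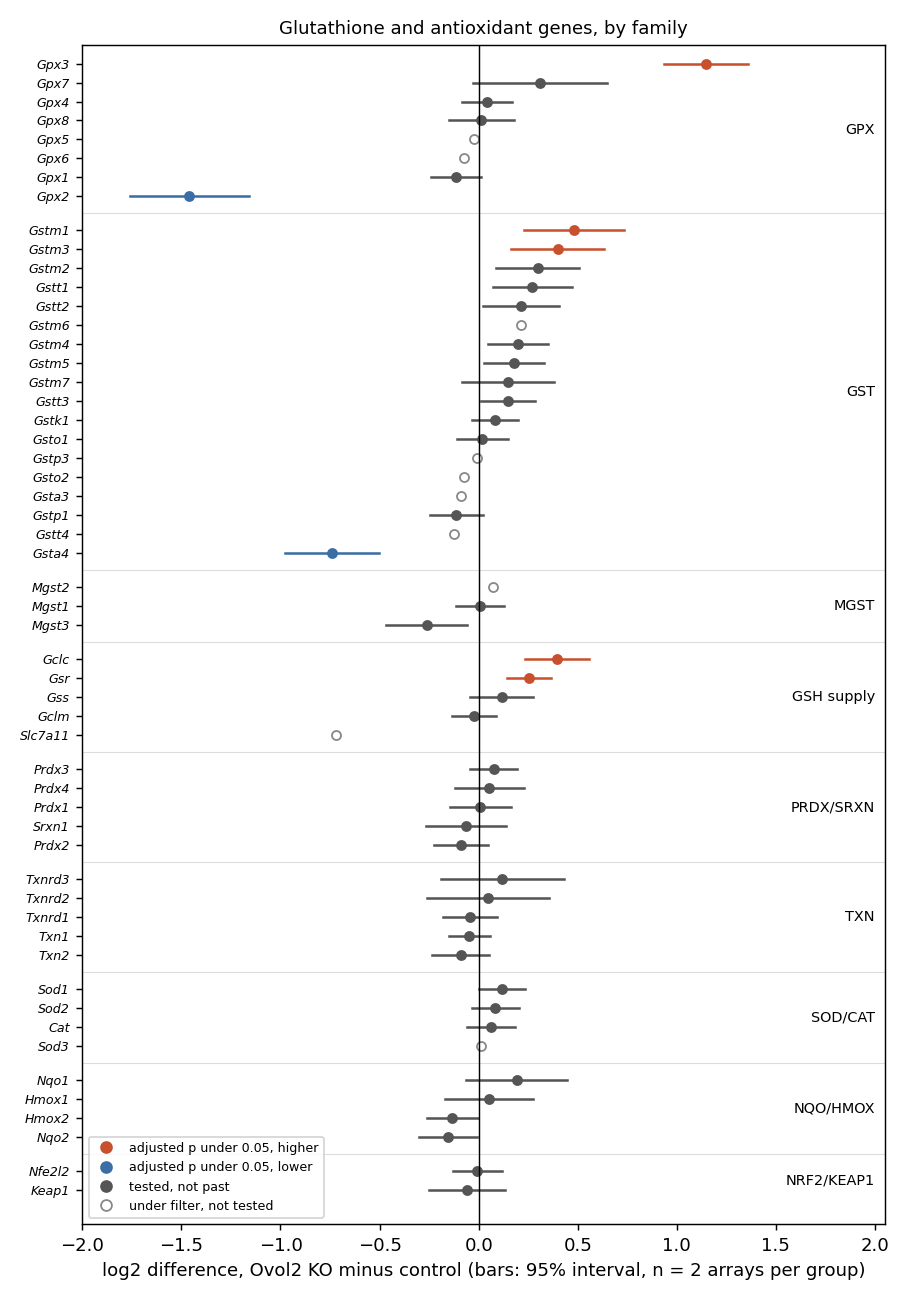
Log2 difference (Ovol2 KO minus control, horizontal axis) of the 54 antioxidant genes, grouped by family, with 95% intervals for the 44 tested genes and open circles for the 10 genes under the signal filter. Gpx3 at 1.15 and Gpx2 at -1.46 lie at opposite ends of the same family, and most other genes lie within 0.2 of 0.

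The glutathione peroxidases held the largest increase and the largest decrease among the antioxidant genes. Gpx3 encodes the secreted, selenium-containing peroxidase of plasma and extracellular fluid. It read 11.97 and 12.31 on control arrays against 13.35 and 13.23 on Ovol2 KO arrays. Both Ovol2 KO arrays lay above both control arrays, by more than the spread within either group. The difference was 1.15 ± 0.09 (95% CI 0.93 to 1.36), a 2.21-fold rise (limma, adjusted p = 0.000305), and Gpx3 passed in all 14 alternative fits in which it was tested.

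Gpx2 encodes the gastrointestinal form of the enzyme, a selenium-containing peroxidase of epithelial cells and a known NRF2 target. It read 9.58 and 9.39 on control arrays against 8.18 and 7.86 on Ovol2 KO arrays. Both Ovol2 KO arrays lay below both control arrays with a wide gap, and Ovol2 KO replicate 2 lay under the signal filter of 7.97. The difference was -1.46 ± 0.13 (95% CI -1.76 to -1.16), a signal 2.75-fold lower (adjusted p = 0.000446). It passed in all 13 alternative fits that could test it. Because a dim signal cannot be told from background here, the fold may understate the decrease. In these bulk samples fewer cells of a type and less RNA per cell cannot be told apart.

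The other peroxidases did not pass. Gpx1, the abundant cytosolic form, read 12.26 and 12.26 on control arrays against 12.22 and 12.08 on Ovol2 KO arrays, a difference of -0.11 ± 0.06 (95% CI -0.24 to 0.01). Gpx4, which reduces lipid hydroperoxides in membranes and protects against ferroptosis, read 11.01 and 10.97 on control arrays against 11.06 and 11.00 on Ovol2 KO arrays. Its difference was 0.04 ± 0.06, the sign turned under median centring, and its second probe set differed by 0.04. The Ovol2 KO and control arrays of Gpx4 overlapped, whereas those of Gpx1 did not. Gpx7 and Gpx8, relatives of the endoplasmic reticulum, differed by 0.31 ± 0.15 (95% CI -0.03 to 0.65) and 0.01 ± 0.07, the latter with a sign that turned with median centring. Gpx5 and Gpx6 were too dim for the test, with differences of -0.02 and -0.07.

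The promoters of Gpx3 and Gpx2 are shown because these genes moved farthest and in opposite directions. The sequences are the 250 bases before the RefSeq start of each gene in GRCm38.p6, written 5′ to 3′ on the gene's strand. Capitals mark a match to CCGTTA or its reverse complement, the core recognised by proteins of the OVO family to which Ovol2 belongs. No other searched motif was matched in either sequence.
Gpx3 promoter, chr11:54902604-54902853, strand +: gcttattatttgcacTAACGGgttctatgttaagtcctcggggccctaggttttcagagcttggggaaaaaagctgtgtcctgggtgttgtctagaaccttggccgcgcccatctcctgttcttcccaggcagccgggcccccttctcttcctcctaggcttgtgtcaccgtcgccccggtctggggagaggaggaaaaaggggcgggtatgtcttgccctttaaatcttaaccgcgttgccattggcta
Gpx2 promoter, chr12:76795555-76795804, strand -: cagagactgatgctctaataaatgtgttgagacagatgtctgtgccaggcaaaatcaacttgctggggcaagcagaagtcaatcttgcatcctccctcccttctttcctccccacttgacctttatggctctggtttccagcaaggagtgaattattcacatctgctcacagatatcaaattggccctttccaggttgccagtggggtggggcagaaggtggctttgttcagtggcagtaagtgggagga
The match in the Gpx3 window begins 235 bases before the start and is on the opposite strand. The Gpx2 window held no match, which says only that these letters are not in this stretch. CCGTTA on either strand was held by 1 of the 48 antioxidant genes with a promoter in the table, which is Gpx3, and by 2.52% of all 27025 genes there. The match is a description of the sequence and not a measured binding site.

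**Figure D2:**
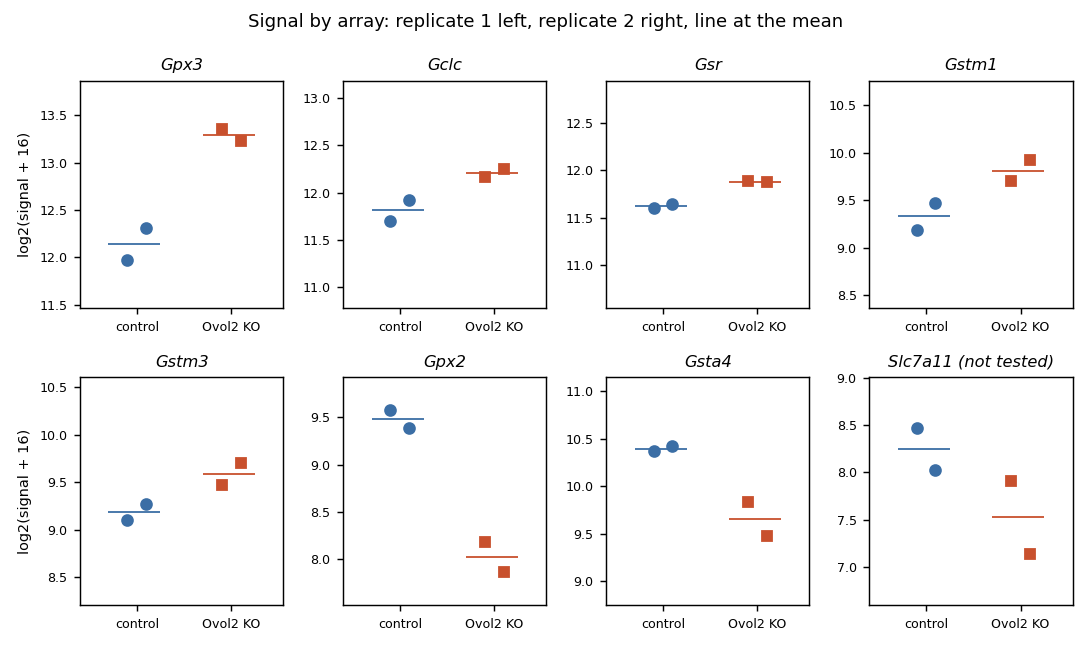
Log2(signal + 16) on each array (control circles, Ovol2 KO squares, horizontal lines at group means) for the 7 antioxidant genes past the threshold and for Slc7a11, which was not tested. Each panel spans the same log2 range, and in all 8 panels both Ovol2 KO arrays lie on 1 side of both control arrays. The 7 genes were picked from these same arrays, so this is no separate support. Of all tested genes, 26.4% lay above and 29.9% below both controls in this way.

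Markers of other cell types are given beside Gpx3 and Gpx2 because they shifted in the same arrays. Over all tested genes 6.29% rose and 4.45% fell. Relative to the control mean, the median fibroblast marker stood at 1.10 and 1.53 in Ovol2 KO replicates 1 and 2, where Gpx3 stood at 1.21 and 1.08. Ovol2 KO replicate 2 had the higher fibroblast median and the lower Gpx3 value, and a link between them was not tested. The summed fibroblast signal of 14 genes ranged from 12568 to 13325 in the controls and from 28974 to 35836 in the Ovol2 KO arrays. Adipocyte markers had 6 of 7 tested genes higher, and a summed signal of 12 genes from 5974 to 6223 in controls against 8028 to 8941 in Ovol2 KO arrays. The adipocyte genes Adipoq, Lep, Cidec, Plin4 and Retn lay under the filter. Of 10 endothelial markers 5 rose and 0 fell (Kdr, which rose, and the uncalled Tek and Tie1 passed the filter only through their Ovol2 KO signal), with a summed signal from 3687 to 4680 in controls and from 5699 to 7286 in Ovol2 KO arrays.

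For the counts that follow, the shares over all tested genes were again 6.29% higher and 4.45% lower. Lymphocyte markers, among them genes of B cells, moved in the direction of Gpx2. Of 4 tested genes 2 fell, Ccr7 and Cd79b, of which Cd79b (difference -1.91), like the uncalled Cd3e and Ptprc, passed the filter only through its control signal. The B-cell genes Cd79a and Ms4a1 lay under the filter and differed by -1.78 and -2.05. These 3 B-cell genes had larger negative differences than Gpx2. Cd3d, Cd3g, Cd4 and Cd8a of the same list, also under the filter, differed by only -0.13, -0.10, -0.26 and -0.24. The summed signal of 10 genes ranged from 2535 to 3059 in the controls and from 1491 to 1569 in the Ovol2 KO arrays. Luminal markers had 2 of 12 tested genes higher and 0 lower, with a list median of 0.06, and their summed signal ranged from 70415 to 72924 in controls and from 75554 to 75601 in Ovol2 KO arrays. Of 11 basal markers 5 rose and 2 fell, with a summed signal from 29627 to 31577 in controls and from 33714 to 40558 in Ovol2 KO arrays. Of 8 tested macrophage markers 1 rose and 1 fell, and the summed signal of 11 genes ranged from 5628 to 6163 in controls and from 4995 to 6418 in Ovol2 KO arrays. Of 7 erythroid markers 2 were on the array and neither was tested, and their summed signal ranged from 410 to 411 in controls and from 425 to 426 in Ovol2 KO arrays. The part of any of these cell types in the antioxidant results was not tested.

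**Figure D3:**
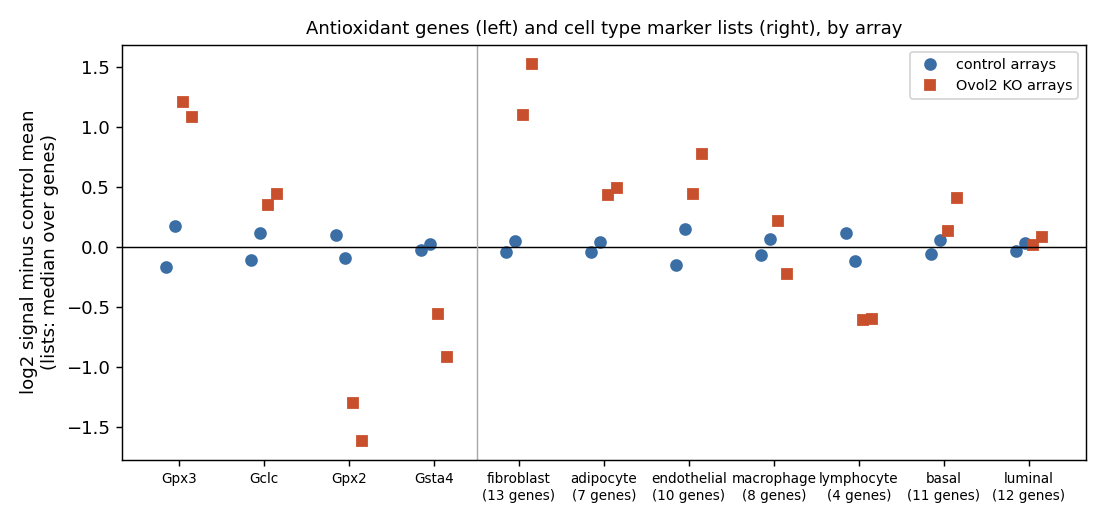
Log2 signal minus the control mean on each array (control circles, Ovol2 KO squares) for 4 antioxidant genes past the threshold, left, and for the median of the tested genes of 7 cell type marker lists, right. In Ovol2 KO replicates 1 and 2, Gpx3 stands at 1.21 and 1.08 and the fibroblast median at 1.10 and 1.53. Gpx2 at -1.30 and -1.62 stands below every list median, the lymphocyte one being over 4 genes of mixed type.

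Among genes that supply reduced glutathione, 2 rose and 2 did not pass, where 6.29% of all tested genes rose. Gclc, the catalytic subunit of glutamate-cysteine ligase and the rate-limiting step of glutathione synthesis, read 11.70 and 11.93 on control arrays against 12.16 and 12.25 on Ovol2 KO arrays. The Ovol2 KO arrays were higher without overlap, and the difference was 0.40 ± 0.07, a 1.32-fold rise (adjusted p = 0.00933). Gclm, the modifier subunit that binds Gclc, read 11.65 and 11.67 on control arrays against 11.61 and 11.66 on Ovol2 KO arrays. Its arrays overlapped, and the difference was -0.02 ± 0.05 (95% CI -0.14 to 0.09). The subunits of the same enzyme thus gave a call for Gclc and an interval that includes 0 for Gclm. Gsr, the reductase that restores reduced glutathione, read 11.60 and 11.65 on control arrays against 11.88 and 11.88 on Ovol2 KO arrays. It rose 1.19-fold (difference 0.25 ± 0.05, adjusted p = 0.0117), with a gap between the groups wider than the spread within them. The Gsr call was lost without control replicate 1 (adjusted p = 0.0587) and with median centring of the arrays (difference 0.21, adjusted p = 0.283). Gss, the synthetase of the last step, read 9.75 and 9.78 on control arrays against 9.89 and 9.88 on Ovol2 KO arrays, a difference of 0.12 ± 0.07 that did not pass.

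Slc7a11, the cystine transporter that brings in the cysteine for glutathione, could not be tested because its mean signal lay under the filter. It read 8.47 and 8.03 on control arrays against 7.91 and 7.14 on Ovol2 KO arrays. Both Ovol2 KO arrays were below both controls, but replicates of each group lay far apart. The difference of the means was -0.72, and it was -0.33 without Ovol2 KO replicate 2 and -1.11 without Ovol2 KO replicate 1. With no filter on dim genes its adjusted p was 0.107.

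The glutathione S-transferases conjugate glutathione to electrophiles and are described by class. Of 18 genes 13 were tested, of which 2 rose, 1 fell and 10 did not pass. Over all tested genes 6.29% rose and 4.45% fell, and these small counts are given as a description. Gsta4, an alpha-class enzyme known for conjugating the lipid peroxidation product 4-hydroxynonenal, read 10.37 and 10.42 on control arrays against 9.83 and 9.48 on Ovol2 KO arrays. The Ovol2 KO arrays were lower without overlap, though they differed from each other more than the controls did. The difference was -0.74 ± 0.11 (95% CI -0.98 to -0.50), a signal 1.67-fold lower (adjusted p = 0.00292). It was -0.56 without Ovol2 KO replicate 2 and -0.92 without Ovol2 KO replicate 1, past the threshold in both fits. Gsta3, the other alpha-class gene with a probe set of its own, was not tested and differed by -0.09.

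The mu-class genes Gstm1 to Gstm7 lay higher in the Ovol2 KO arrays. By the chosen probe sets, both Ovol2 KO arrays were above both control arrays for all 7. This held for 26.4% of all tested genes and for 4007 of all 19938 genes. The differences ranged from 0.15 for Gstm7 to 0.48 for Gstm1. Of the 6 tested mu-class genes 2 rose, against 6.29% of all tested genes. Gstm1 read 9.19 and 9.47 on control arrays against 9.70 and 9.92 on Ovol2 KO arrays, a 1.39-fold rise (difference 0.48 ± 0.11, adjusted p = 0.0255), a call lost when control replicate 1 was left out (adjusted p = 0.168). Gstm3 read 9.10 and 9.28 on control arrays against 9.47 and 9.71 on Ovol2 KO arrays (difference 0.40 ± 0.11, adjusted p = 0.0403). This was the least stable of the 7 calls. The second probe set of Gstm3 differed by 0.01. Its arrays overlapped, at 8.48 and 8.12 for control against 8.30 and 8.32 for Ovol2 KO. The mean of the Gstm3 probe sets differed by 0.20 (adjusted p = 0.267). Its call was also lost without control replicate 1 (adjusted p = 0.256), without Ovol2 KO replicate 2 (adjusted p = 0.105), with median centring (adjusted p = 0.141) or with no filter (adjusted p = 0.0556).

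The remaining mu-class genes did not pass. Gstm2 differed by 0.30 ± 0.09 (adjusted p = 0.0753), but without quantile normalization it passed in a fit that placed all weight on the variance trend (difference 0.32, adjusted p = 0.0263). Gstm4 differed by 0.20 ± 0.07, Gstm5 by 0.18 ± 0.07 and Gstm7 by 0.15 ± 0.10, and Gstm6, under the filter, by 0.21. The 7 genes are the only protein-coding genes listed between the outermost of them on chromosome 3 in the RefSeq table of GRCm38. They are close relatives in sequence, so a probe set of 1 gene may also read RNA of another, and the 7 values are not independent of each other. The direction of the 7 genes held without quantile normalization and with median centring.

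Of the theta-class genes 3 of 4 lay higher in the Ovol2 KO arrays. Gstt1, Gstt2 and Gstt3 differed by 0.27 ± 0.09, 0.21 ± 0.09 and 0.15 ± 0.06, and none passed the threshold. For each, both Ovol2 KO arrays lay above both controls, as for 26.4% of all tested genes. Without Ovol2 KO replicate 1 the Gstt1 difference was 0.32. Gstt4, in the same group of 4 neighbours on chromosome 10, lay under the filter and differed by -0.12. Gstp1, the pi-class enzyme, differed by -0.11 ± 0.06, Gstk1, the mitochondrial and peroxisomal kappa-class enzyme, by 0.08 ± 0.05, and Gsto1, an omega-class enzyme, by 0.02 ± 0.06. The sign of the Gsto1 value turned with median centring. Gsto2 and Gstp3 were not tested, at -0.08 and -0.01. Probe sets shared between Gstp1 and Gstp2, or between Gsta1, Gsta2 and further genes, numbered 6 and were left out.

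**Figure D4:**
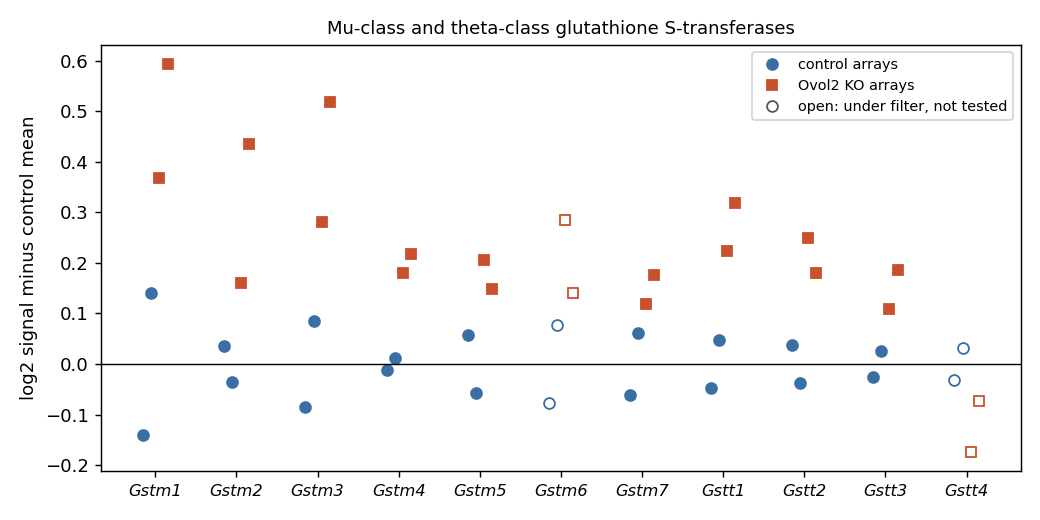
Log2 signal minus the control mean on each array (control circles, Ovol2 KO squares, open symbols for genes under the filter) for 7 mu-class and 4 theta-class transferases. By the chosen probe sets, both Ovol2 KO arrays lie above both control arrays for all genes but Gstt4. The arrays of the second Gstm3 probe set, not shown, overlap. The highest Ovol2 KO value, 0.59 above the control mean, is in Gstm1.

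The microsomal transferases, membrane proteins of the endoplasmic reticulum, gave no call. Mgst3 read 10.41 and 10.26 on control arrays against 10.19 and 9.94 on Ovol2 KO arrays, a difference of -0.26 ± 0.09 (adjusted p = 0.102). Without Ovol2 KO replicate 1 the Mgst3 difference was -0.39. Mgst1 differed by 0.01 ± 0.05, with a sign that turned with median centring, and Mgst2, not tested, by 0.07.

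Peroxiredoxins, superoxide dismutases and catalase, the main enzymes of peroxide and superoxide removal, gave no call. None of their differences exceeded 0.12 in size. Prdx1, a cytosolic peroxiredoxin, read 12.50 and 12.27 on control arrays against 12.39 and 12.40 on Ovol2 KO arrays, a difference of 0.01 ± 0.07 whose sign turned in 4 alternative fits. Prdx2, Prdx3 and Prdx4 differed by -0.09, 0.08 and 0.05, and the second probe set of Prdx2 disagreed in sign at 0.02, as did that of Prdx1 at -0.01. Srxn1, which repairs overoxidised peroxiredoxins and is a known NRF2 target, read 9.14 and 9.14 on control arrays against 9.05 and 9.10 on Ovol2 KO arrays, a difference of -0.06 ± 0.09 (95% CI -0.27 to 0.14).

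Sod1, the cytosolic superoxide dismutase, read 11.83 and 11.78 on control arrays against 11.89 and 11.96 on Ovol2 KO arrays, a difference of 0.12 ± 0.05 (adjusted p = 0.183). Sod2, the mitochondrial enzyme, read 11.15 and 11.18 on control arrays against 11.23 and 11.27 on Ovol2 KO arrays, a difference of 0.08 ± 0.05. Both dismutases were slightly higher in each Ovol2 KO array and neither passed. Sod3, the extracellular form, was not tested. It read 7.77 and 7.91 on control arrays against 7.88 and 7.82 on Ovol2 KO arrays, which overlapped. Cat read 11.84 and 11.94 on control arrays against 11.92 and 11.98 on Ovol2 KO arrays, which overlapped too, with a difference of 0.06 ± 0.05.

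The thioredoxin system, which reduces peroxiredoxins and other protein disulfides, gave no call among 5 tested genes. Txn1 read 13.11 and 13.04 on control arrays against 13.05 and 13.02 on Ovol2 KO arrays, a difference of -0.05 ± 0.05 (95% CI -0.15 to 0.06). Its reductase Txnrd1 read 10.56 and 10.57 on control arrays against 10.49 and 10.55 on Ovol2 KO arrays, a difference of -0.04 ± 0.06 (95% CI -0.18 to 0.09). The arrays of Txn1 overlapped between groups and those of Txnrd1 were separated only narrowly. The mitochondrial Txn2 differed by -0.09 ± 0.06, Txnrd2 by 0.05 ± 0.14 and Txnrd3 by 0.12 ± 0.14.

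The quinone reductases and heme oxygenases, some of them widely used as readouts of NRF2 activity, did not pass either. Nqo1, a quinone reductase, read 8.71 and 8.83 on control arrays against 8.86 and 9.07 on Ovol2 KO arrays, a difference of 0.19 ± 0.11 (95% CI -0.06 to 0.45). Hmox1, the inducible heme oxygenase, read 8.95 and 9.10 on control arrays against 9.08 and 9.08 on Ovol2 KO arrays, a difference of 0.05 ± 0.10 that turned sign without control replicate 1. Both intervals include 0. Nqo2 and the constitutive Hmox2 differed by -0.16 ± 0.07 and -0.13 ± 0.06 and did not pass. Nfe2l2 itself read 11.58 and 11.55 on control arrays against 11.50 and 11.61 on Ovol2 KO arrays, a difference of -0.01 ± 0.06 (95% CI -0.13 to 0.12). Keap1 read 9.28 and 9.26 on control arrays against 9.22 and 9.20 on Ovol2 KO arrays, a difference of -0.06 ± 0.09. These are RNA levels, whereas NRF2 is known to be controlled mainly through the stability of its protein.

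The antioxidant response element, the DNA motif of NRF2, was searched as TGACNNNGC on both strands of the same 250-base windows, with the same letters followed by A as a stricter form nested in it. The shorter form was held by 9 of the 48 antioxidant genes (18.8%) and by 11.5% of all genes in the table. The genes were Gclm, Gsta3, Gstm5, Gstm7, Mgst1, Nfe2l2, Prdx1, Sod1 and Txnrd1. Of the 7 genes past the threshold, 4 were in the promoter table and 0 of these 4 held it, and Gclc, Gsr and Gsta4 were not matched there. The stricter form was held by 2 of the 48 genes, Gsta3 and Txnrd1, and by 2.80% of all genes. Windows of Gclm and Txnrd1, known NRF2 targets that did not pass, are shown as examples that hold the shorter form. Its match is in capitals.
Gclm promoter, chr3:122245307-122245556, strand +: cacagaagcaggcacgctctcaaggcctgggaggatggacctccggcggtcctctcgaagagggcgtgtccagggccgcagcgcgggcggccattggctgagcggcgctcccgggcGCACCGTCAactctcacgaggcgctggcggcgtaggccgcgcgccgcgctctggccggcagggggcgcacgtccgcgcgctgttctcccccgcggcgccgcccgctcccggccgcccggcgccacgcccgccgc
Txnrd1 promoter, chr10:82858956-82859205, strand +: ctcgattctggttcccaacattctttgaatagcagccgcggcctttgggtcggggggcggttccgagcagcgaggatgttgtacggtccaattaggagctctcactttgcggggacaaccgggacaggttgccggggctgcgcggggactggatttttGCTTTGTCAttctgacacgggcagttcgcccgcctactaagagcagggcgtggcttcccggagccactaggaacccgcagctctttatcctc
The match begins 134 bases before the start in Gclm and 92 bases before it in Txnrd1, both on the strand opposite to the gene. The Txnrd1 window belongs to 1 of its 3 listed starts.

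**Figure D5:**
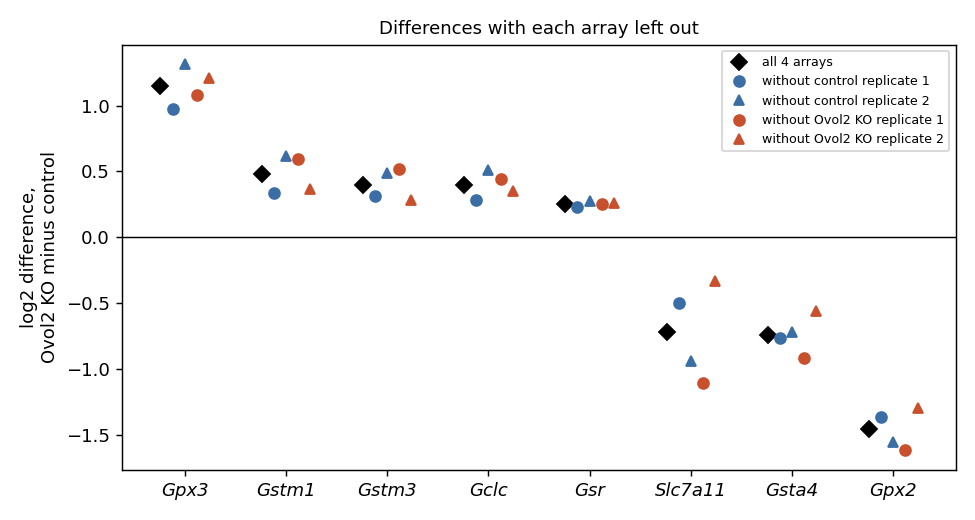
Log2 difference (Ovol2 KO minus control) of the 7 genes past the threshold and of Slc7a11 with all 4 arrays (diamonds) and with each array left out in turn. Every value keeps its direction, which leaving out an array could not change because both Ovol2 KO arrays lie on the same side of both controls. Slc7a11 spans the widest range, from -1.11 to -0.33.

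Genes of the same pathways outside these families, 79 on the array and 73 tested, gave 7 that rose, 3 that fell and 63 that did not pass, with a median difference of 0.02. The 10 calls are 13.7% of the tested genes, near the 10.7% of all tested genes, and are given as a description. The whole list, and not the calls alone, covers glutathione breakdown and export, NADPH supply, glutaredoxins, methionine sulfoxide reductases, selenoprotein synthesis and NRF2 partners. Dpep1, a membrane dipeptidase that acts on breakdown products of glutathione, read 7.66 and 7.70 on control arrays against 8.59 and 8.82 on Ovol2 KO arrays (difference 1.02 ± 0.15, adjusted p = 0.00278). Its controls lay under the filter level, so it passed the filter only through its Ovol2 KO signal and its call supports nothing further. Abcc3, an export pump of conjugates, rose by 0.80 ± 0.10 (adjusted p = 0.00157). Txnip, which binds and inhibits thioredoxin, read 11.38 and 11.31 on control arrays against 11.94 and 12.17 on Ovol2 KO arrays, a 1.64-fold rise (adjusted p = 0.000792). Abcc3 and Txnip passed in all 14 alternative fits.

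Selenop, the selenium carrier of plasma, rose by 0.40 ± 0.06 and the sestrin gene Sesn1 by 0.35 ± 0.07. Sqstm1, encoding the autophagy adaptor p62 that binds KEAP1, rose by 0.21 ± 0.06, and Park7, encoding DJ-1, by 0.18 ± 0.05. Sesn1, Sqstm1 and Park7 did not pass without control replicate 1 or with median centring, Sqstm1 and Park7 not without Ovol2 KO replicate 2, and Park7 not without control replicate 2. Cth, the enzyme that makes cysteine from cystathionine, fell by 0.59 ± 0.13 on the log2 scale, a call lost without control replicate 1. The metallothionein gene Mt1 fell by 0.42 ± 0.07 and the aldo-keto reductase gene Akr1b8 by 0.37 ± 0.10. The Akr1b8 call was lost without control replicate 1, control replicate 2 or Ovol2 KO replicate 2. The count was 5 (6.85%) without control replicate 1, where 3.98% of all tested genes passed, and 20 (27.4%) without Ovol2 KO replicate 1, where 19.6% did.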

How the data were processed

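RNA was measured on 4 Affymetrix arrays of a single colour. The deposited table holds 1 linear signal intensity per probe set and array for 35556 probe sets, made by the authors with PLIER (version 2.0) and Affymetrix Expression Console (version 1.1.1), per the submitters' processing notes. For the background correction, normalization and genome build, the method is not given in the sources used here. Neither scanner files nor detection calls were used. The number of arrays limits the precision.

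Of the probe sets, 21789 carried 1 gene symbol in the platform annotation, 1621 had more than 1, and the 12146 outside the annotation are unnamed here. The Entrez identifiers of 21698 matched RefSeq genes of GRCm38, with 0 symbols changed. Signals were taken as log2(signal + 16) and brought to equal quantiles over all probe sets with limma. Genes under the 40th percentile of mean signal (log2 value of 7.97) were not tested. No tested antioxidant gene had a group mean under that level. The groups were compared in R (version 4.3.3) by limma (version 3.58.1, lmFit, eBayes with trend, two-sided), with Benjamini-Hochberg adjustment over all tested genes. The fit was tested on simulated data. Alternatives covered scaling, offset, filter, variance prior, probe set choice, each array left out and a replicate block.

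Values in every array are given for each antioxidant gene past the threshold and for a fixed core set of 22 genes, of which Prdx6 had no single-gene probe set here. The other genes are given by their differences. The pools are called biological replicates in the labels, and p-values measure the spread between these pools. The antioxidant genes and all lists were chosen with earlier results of these data known. Promoter windows are from RefSeq, GRCm38.p6, and matched 48 of the 54 genes.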

Additional observations from a re-analysis of the deposited data

How the results depend on the processing

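The 7 calls kept their direction in every alternative fit. Leaving out an array could not turn their sign, because both Ovol2 KO arrays lay on the same side of both controls. The filter, variance prior and replicate block leave the difference itself unchanged. Only Gpx3 and Gpx2 kept their side of the threshold in every fit that could test them. With the filter at the 60th percentile Gpx2 could not be tested. The number of antioxidant genes that rose, 5 with all arrays, was 3 with median centring and 1 without the variance trend. The number that fell, 2, was 1 with the 60th percentile filter and 1 without the trend. With each array left out in turn the counts ranged from 2 to 7 for genes that rose and from 2 to 3 for genes that fell. The count of 10 related genes was 6 with the 60th percentile filter, 3 without the trend and from 5 to 20 with an array left out. Over all genes the 1285 calls became 753 with median centring, 188 without the trend and from 476 to 2347 with an array left out. The cause was not tested, beyond the smaller number of genes that the 60th percentile filter leaves. A fit with an array left out assumes that the lone array varies like the other group, and 5 fits placed all weight on the variance trend: the values as deposited, median centring, the replicate block, and those without either Ovol2 KO array.

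The sign turned for Gpx4 with median centring (-0.0030), for Hmox1 without control replicate 1 (range with an array left out -0.026 to 0.13), and for Nfe2l2 without control replicate 1 or Ovol2 KO replicate 1 (range -0.061 to 0.047). For Prdx1 it turned with median centring (-0.033), with the mean of all probe sets (-0.00048), and without control replicate 2 or Ovol2 KO replicate 2 (range -0.10 to 0.12). None of these values passed. Replicate numbers are shared between groups. Deviations from the group means correlated at -0.20 over the tested genes for arrays of the same number. With 2 arrays per group the crossed numbers give 0.20 by construction, so whether the numbers pair the arrays cannot be told. With the replicate block 7 antioxidant genes rose and 3 fell, 18 related genes and 2246 genes in all passed. With the numbers crossed, a fit chosen after seeing the data, 4 rose, 2 fell, and 8 related genes and 1203 genes in all passed. Dim signals, such as those of Gpx2 in the Ovol2 KO arrays and of Slc7a11, limit what can be said of their size.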
